A study of Mus musculus with 8 samples.

Results

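Desmosomes are spot-like junctions that fasten the keratin filaments of neighboring epithelial cells to each other. In each junction, cadherins of the desmoglein (Dsg) and desmocollin (Dsc) families reach across the gap between cells, plakoglobin (Jup) and plakophilins (Pkp) bind their tails inside the cell, and desmoplakin (Dsp) ties this plaque to keratin. Perp is a membrane protein with 4 transmembrane segments that is found in desmosomes, and p63 (Trp63) is the transcription factor of basal cells in stratified and glandular epithelium, for which Perp is a known target gene. The 10 genes described here are Perp, Trp63, Dsp, Jup, Pkp1, Pkp3, Dsc2, Dsc3, Dsg2 and Dsg3, of 55414 genes in the deposited table. They were listed by symbol with earlier results of the same tumors in view, so their differences between treatments are given as a description, and where they are counted against a threshold the count supports nothing about them.

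RNA was sequenced from orthotopic mammary tumors of the PyMt line, a single cell line made from a tumor of an MMTV-PyMt transgenic mouse, in which a viral oncogene is driven by a mammary tumor virus promoter. The line was injected into the mammary fat pad of female WT C57BL/6 mice 6 to 8 weeks old. Both groups were treated topically every 2 days from day 2 after implantation, 4 tumors with 20 nmol calcipotriol, a vitamin D analog, dissolved in EtOH and 4 with EtOH alone, with harvest 24 hours after the final dose. The labels number the EtOH-treated tumors 1, 2, 3 and 4 and the calcipotriol-treated tumors 1, 5, 6 and 7, and these numbers are used below. The labels call the samples epithelial cells, but whole tumors were used, so tumor, stromal, vascular and immune RNA is mixed, and fewer cells of a type cannot be told apart from less RNA per cell.

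Library totals were 19685397 to 25084715 counts. Levels are given as CPM, which relates each count to the TMM-scaled total of its library, where 3 counts correspond to 0.12 to 0.152 CPM before scaling. Adjusted p-values below come from edgeR's quasi-likelihood test with Benjamini-Hochberg adjustment over the 14458 genes with enough counts, and are written as edgeR adjusted p. A gene passed both thresholds where this value was below 0.05 and the log2 fold change was 1 or more in size. This held for 292 genes (2.02%), of which 155 (1.07%) were higher and 137 (0.948%) lower with calcipotriol. Calcipotriol-treated tumor 1 stood apart from the others of its group, with 0 counts of Cyp24a1, the vitamin D-degrading enzyme that the vitamin D receptor induces, against 130, 36 and 52 counts in calcipotriol-treated tumors 5, 6 and 7. All 4 EtOH-treated tumors had 0 counts of Cyp24a1. The receptor itself, Vdr, was at 29.2 to 68.4 CPM with EtOH and 56.9 to 81.5 CPM with calcipotriol (log2 fold change 0.73, edgeR adjusted p = 0.171).

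The 10 genes did not form one block in these tumors. Jup and Pkp3 were abundant and overlapped between the treatments, Perp, Trp63, Dsp and Pkp1 were low with EtOH and higher with calcipotriol, and the 4 desmosomal cadherins had few or no counts in any tumor. The name desmosome therefore holds for these genes only as a list of plaque and membrane parts, since transcripts of the cadherins that define the junction were near the detection limit. The filter on low counts was passed by 6 of the 10 genes, and Dsc2, Dsc3, Dsg2 and Dsg3 were not tested. Perp and Dsp reached the CPM minimum of that filter in 1 EtOH-treated tumor each, and Trp63 and Pkp1 in 3, but all of them reached it in all 4 calcipotriol-treated tumors, so they passed it through the group in which they were higher. The fit over all genes placed Perp and Trp63 past both thresholds, beside the 1.07% of all genes tested that were higher in that way, and nothing is read from this count. This count was 0 when EtOH-treated tumor 2 or calcipotriol-treated tumor 6 or 7 was left out. In those fits 0.476%, 0.466% and 0.461% of all genes tested were higher past both thresholds. The count was 3 without calcipotriol-treated tumor 1, where 1.62% of all genes tested were higher in that way. Of the 10 genes, 5 had every calcipotriol-treated tumor above every EtOH-treated tumor and 0 had the opposite. Without Dsc2, which was not tested, these were 4 of the 6 tested genes, beside 6.32% of all genes tested that were separated in this direction and 6.16% in the other. This too is a description of chosen genes.

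**Figure D1:**
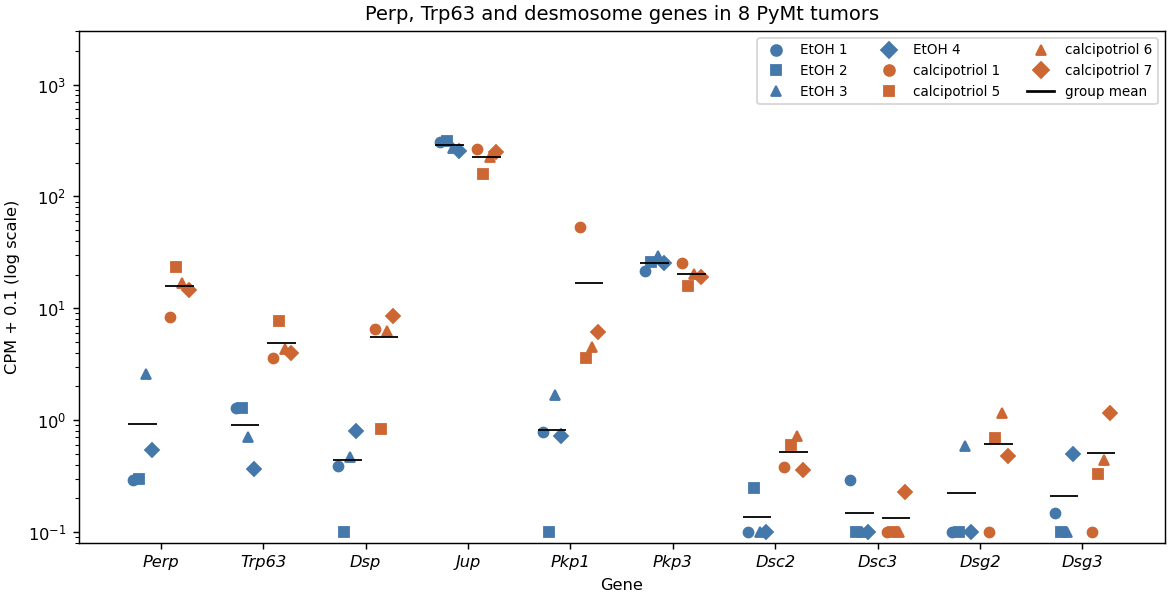
Level of each of the 10 genes (CPM + 0.1, log scale) in the 4 EtOH-treated and 4 calcipotriol-treated tumors, with 1 symbol per tumor and a black line at each group mean. Jup and Pkp3 overlap between the groups, Perp, Trp63, Dsp and Pkp1 do not, and the Dsc and Dsg genes lie near 0.

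Perp lies on the forward strand of chromosome 10 (18845020 to 18857073 in GRCm38). The EtOH-treated tumors 1 to 4 had 0.194, 0.195, 2.47 and 0.441 CPM, which is 4, 4, 61 and 10 counts. The calcipotriol-treated tumors 1, 5, 6 and 7 had 8.29, 23.5, 16.6 and 14.4 CPM, or 209, 516, 345 and 341 counts. All calcipotriol-treated tumors were above all EtOH-treated tumors, and among the latter tumor 3 held most of the counts. The group means were 0.824 ± 1.1 CPM with EtOH and 15.7 ± 6.29 CPM with calcipotriol (SD, n = 4 each), a log2 fold change of 4.21 with a standard error of 0.75. Without EtOH-treated tumor 3 the log2 fold change was 5.78, and without calcipotriol-treated tumor 1 it was 4.42.

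Trp63, on the forward strand of chromosome 16 (25683763 to 25892102), was low in both groups. It had 24, 24, 15 and 6 counts in the EtOH-treated tumors (1.17, 1.17, 0.607 and 0.264 CPM) and 88, 165, 88 and 91 counts in the calcipotriol-treated tumors (3.49, 7.53, 4.23 and 3.85 CPM). The groups did not overlap, and calcipotriol-treated tumor 5 was the highest. The log2 fold change was 2.57 with a standard error of 0.53, from 0.801 ± 0.445 to 4.78 ± 1.86 CPM (SD, n = 4 each). It was 2.70 without calcipotriol-treated tumor 1. The table holds 1 value per gene, so the long form of p63 and the form that lacks the amino-terminal activation domain, which basal cells mainly use, cannot be told apart.

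Dsp encodes desmoplakin, the link from the plaque to keratin filaments, and lies on chromosome 13 (38151294 to 38198577). Its EtOH-treated tumors had 6, 0, 9 and 16 counts, and its calcipotriol-treated tumors had 161, 16, 127 and 201 counts. On the CPM scale calcipotriol-treated tumor 5 was at 0.73, just above the highest EtOH-treated tumor at 0.705, while calcipotriol-treated tumors 1, 6 and 7 were at 6.39, 6.1 and 8.51. The separation of the groups thus rests on 3 of the 4 calcipotriol-treated tumors. The log2 fold change was 3.96 with a standard error of 0.93, from 0.34 ± 0.29 to 5.43 ± 3.31 CPM (SD, n = 4 each), and 3.88 without calcipotriol-treated tumor 1.

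Pkp1, a plakophilin of stratified epithelium on the reverse strand of chromosome 1 (135871395 to 135919207), had 14, 0, 39 and 14 counts in the EtOH-treated tumors. With calcipotriol, tumor 1 had 1340 counts and tumors 5, 6 and 7 had 76, 92 and 143. Tumor 1 was at 53.2 CPM, against 3.47, 4.42 and 6.06 CPM in tumors 5, 6 and 7 and a highest EtOH value of 1.58 CPM. The groups did not overlap with or without this tumor, but the size of the difference depended on it: the log2 fold change came to 4.51 (standard error 1.11) with all tumors and 2.67 without it.

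Jup, on the reverse strand of chromosome 11 (100368958 to 100397763), encodes plakoglobin, which serves in adherens junctions as well as in desmosomes. It had 308, 311, 270 and 257 CPM in the EtOH-treated tumors and 267, 160, 223 and 251 CPM in the calcipotriol-treated tumors. The ranges overlapped, and the log2 fold change was -0.35 with a standard error of 0.17. Pkp3, a plakophilin of simple and stratified epithelia on chromosome 7 (141078218 to 141090510), had 21.3, 25.7, 29.4 and 25.5 CPM with EtOH and 25.3, 15.7, 20 and 19.1 CPM with calcipotriol. Its log2 fold change was -0.35 with a standard error of 0.18, again with overlapping ranges. Calcipotriol-treated tumor 5 was the lowest of the 8 tumors for both genes, whereas it was the highest for Perp and Trp63.

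The signs of the Jup and Pkp3 differences depended on the scale. The summed CPM of Epcam, Krt8, Krt18 and Cdh1, general epithelial genes, was 1000 to 1320 CPM across the EtOH-treated tumors and 589 to 888 CPM across the calcipotriol-treated tumors, a log2 difference of -0.77. Relative to this sum the log2 differences were 0.42 for Jup and 0.43 for Pkp3, while those of Perp, Trp63, Dsp and Pkp1 were 4.98, 3.34, 4.73 and 5.28. Nearly all of the sum comes from Krt8 and Krt18, the keratins of simple epithelium, so this scale is in effect that of these 2 keratins. Epcam and Cdh1 went the other way, with log2 fold changes of 2.62 and 0.45 (edgeR adjusted p = 0.328 and 0.634). Krt18 was at 557 ± 90.3 CPM with EtOH and 293 ± 39.9 CPM with calcipotriol (SD, n = 4 each), a log2 fold change of -0.93 (edgeR adjusted p = 0.0162), short of the fold change threshold.

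The desmosomal cadherin genes lie in 1 cluster on chromosome 18, between 19960930 and 20604521, in the order Dsc3, Dsc2, Dsc1, Dsg1c, Dsg1a, Dsg1b, Dsg4, Dsg3 and Dsg2. Dsc1, Dsg1a, Dsg1b, Dsg1c and Dsg4, the genes in the middle of the cluster, had 0 counts in all 8 tumors. Together the 4 measured cadherins had 5, 3, 12 and 9 counts in the EtOH-treated tumors and 7, 29, 42 and 43 counts in the calcipotriol-treated tumors. The 3 highest sums were thus those of calcipotriol-treated tumors 5, 6 and 7, and tumor 1 lay within the range of the EtOH-treated tumors.

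Dsc2, the desmocollin found in most desmosome-bearing tissues, had 0, 3, 0 and 0 counts in the EtOH-treated tumors, against 7, 11, 13 and 6 after calcipotriol. Its groups did not overlap. The ratio of the summed levels, calcipotriol over EtOH, was 11.9, with an exact 95% interval of 3.78 to 60.5 that covers counting error only and not the spread between tumors. Dsg2, the desmoglein with the same wide distribution, had 12 counts over the EtOH-treated tumors, all in tumor 3, and 0, 13, 22 and 9 counts in the calcipotriol-treated tumors. The groups overlapped, with a ratio of 3.55 (exact interval 1.84 to 7.38).

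Dsg3 and Dsc3 are the pair of basal stratified epithelium. Dsg3 had 1, 0, 0 and 9 counts in the EtOH-treated tumors, against 0, 5, 7 and 25 after calcipotriol, which overlap, and the ratio of its sums was 3.58 (exact interval 1.74 to 8.07). Dsc3 had 4 counts in all with EtOH, in tumor 1, and 3 in all with calcipotriol, in tumor 7, with a ratio of 0.725 (exact interval 0.106 to 4.29). At this depth no difference in Dsc3 was detectable.

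Levels of different genes were compared per kilobase of annotated exon. With EtOH, Jup was at 44.5 CPM per kb, Pkp3 at 7.04, Perp at 0.422, Pkp1 at 0.143, Trp63 at 0.0955 and Dsp at 0.0352. Jup and Pkp3 were each clear of the next gene in every tumor, whereas the ranges of Perp and Pkp1, of Pkp1 and Trp63, and of Trp63 and Dsp overlapped. The cadherins were at 0.00691 to 0.0159 CPM per kb. With calcipotriol the order was Jup at 35, Perp at 8.05, Pkp3 at 5.54, Pkp1 at 3.34, Trp63 at 0.569 and Dsp at 0.562 CPM per kb, and only Jup was clear of the next gene in all tumors. Dsc2, Dsg2 and Dsg3 were at 0.0785, 0.0614 and 0.0581 CPM per kb.

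**Figure D2:**
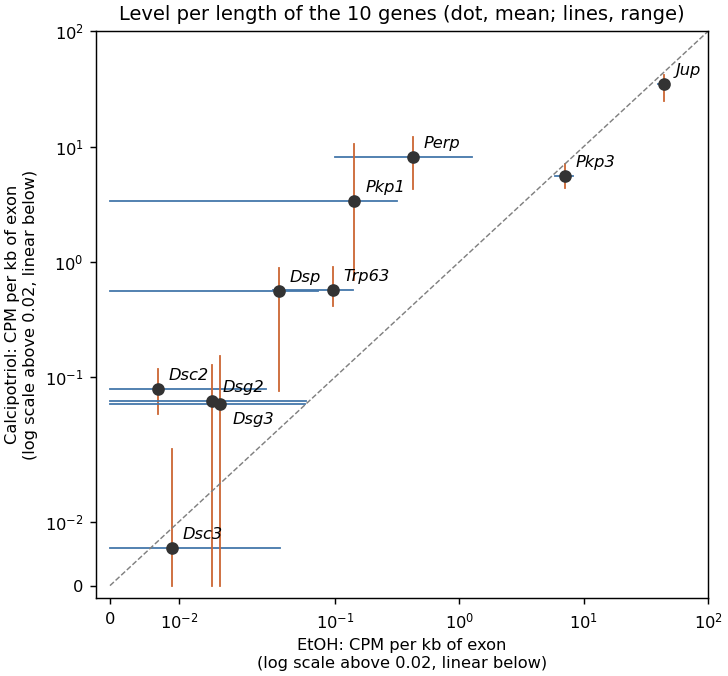
Mean level of each gene in CPM per kb of exon with EtOH (horizontal) and calcipotriol (vertical), with blue and orange lines for the range over the 4 tumors of each group and a dashed line of equal levels. Jup and Pkp3 lie near the line of equal levels, and Perp, Pkp1, Dsp and Trp63 lie above it.

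Transcript levels of the plaque genes differed widely from each other in both groups. Per kb, Jup exceeded Dsp by 1590-fold, 1110-fold and 547-fold in EtOH-treated tumors 1, 3 and 4, and Dsp was at 0 in EtOH-treated tumor 2. In the calcipotriol-treated tumors this ratio was 62.8, 330, 54.8 and 44.3. Among the plakophilins, Pkp1 made up 0% to 2.99% of the summed level per kb of Pkp1, Pkp2 and Pkp3 in EtOH-treated tumors. With calcipotriol its share was 54.6% in tumor 1 and 11.2%, 11.7% and 15.5% in tumors 5, 6 and 7. Pkp3 remained the main plakophilin in 7 of the 8 tumors, at 68% to 80.4%, and had 36.1% in calcipotriol-treated tumor 1.

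**Figure D3:**
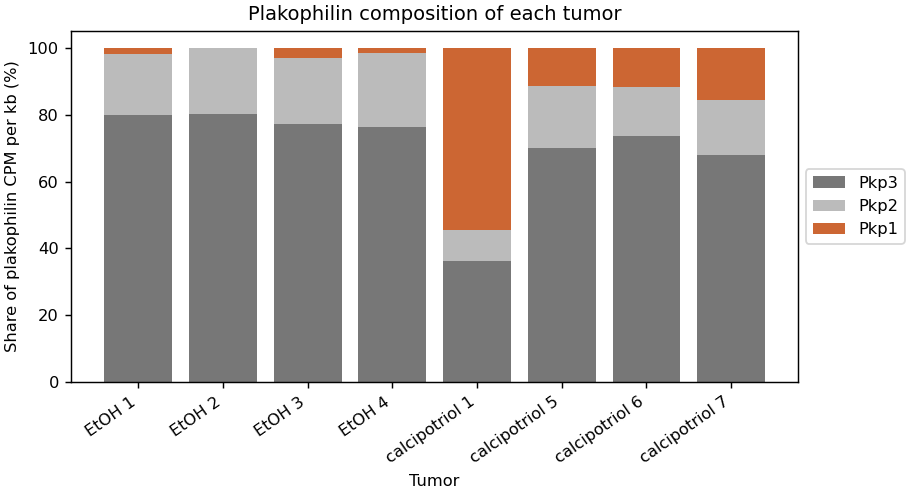
Share (%) of Pkp3, Pkp2 and Pkp1 in the summed plakophilin level per kb of exon in each of the 8 tumors. Pkp1 is at most 2.99% in EtOH-treated tumors, 11.2% to 15.5% in calcipotriol-treated tumors 5, 6 and 7, and 54.6% in calcipotriol-treated tumor 1.

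The genes did not peak in the same tumors. Among the 6 tested genes, calcipotriol-treated tumor 1 was the highest of its group for Pkp1, Jup and Pkp3, tumor 5 for Perp and Trp63, and tumor 7 for Dsp. Among the EtOH-treated tumors, tumor 3 was the highest for Perp, Pkp1 and Pkp3, tumor 2 for Trp63 and Jup, and tumor 4 for Dsp. Calcipotriol-treated tumor 5 had the most Perp and Trp63 and the least Dsp, Pkp1, Jup and Pkp3 of its group. With each gene centred on its group means, the tested genes closest to Trp63 over the 8 tumors, of 11942 candidates, were Med24, Nhlrc2, Ints9, Emc3 and Zfp330 (Pearson's r 0.98 to 0.97), and those closest to Perp were Gm10053, Zfp873, Elovl6, Lrrc42 and Nasp (0.97 to 0.96). These are the extremes of many genes measured in the same 8 libraries, and the same measure was -0.17 between Trp63 and Perp. With Dsp, Jup, Pkp1 and Pkp3 it was -0.79, -0.12, -0.50 and -0.55 for Trp63 and 0.05, -0.54, 0.20 and 0.11 for Perp.

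Other parts of the desmosome were read from a list of 10 genes outside the 10 described above, of which 5 were tested. Periplakin, Ppl, a plakin of the desmosome plaque and the cornified envelope, rose, and the other 4 tested did not pass the thresholds. Ppl had 9.96, 9.58, 6.55 and 6.92 CPM with EtOH and 24.8, 37.6, 29 and 28.8 CPM with calcipotriol, with no overlap. Its log2 fold change came to 1.87 (standard error 0.205, edgeR adjusted p = 0.00235). It was past both thresholds in the fit and under every alternative run. Pkp2, the plakophilin of simple epithelia and heart, was at 7.24 to 11 CPM with EtOH and 5.95 to 9.72 CPM with calcipotriol (edgeR adjusted p = 0.4). Cdsn was at 0 to 0.728 CPM with EtOH and 1.07 to 3.79 CPM with calcipotriol, with no overlap. The log2 fold change of Cdsn was 2.36 (edgeR adjusted p = 0.208). Those of Evpl and Kazn were 0.42 and -0.59 (edgeR adjusted p = 0.614 and 0.716).

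Among the listed genes of adherens junctions, tight junctions and hemidesmosomes, Cldn3 alone passed both thresholds, beside 2.02% of all genes tested. Of 10 adherens junction genes 9 were tested and 0 passed in either direction. Their median log2 fold change was -0.09, beside 0.02 over all genes tested. E-cadherin, Cdh1, was at 5.01 to 16.2 CPM with EtOH and 7.48 to 22.5 CPM with calcipotriol (edgeR adjusted p = 0.634). Nectin1 had a log2 fold change of 0.42 (edgeR adjusted p = 0.537).

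Of 13 tight junction genes, 7 were tested, and claudin 3, Cldn3, was the 1 that rose, with 0 lower. It had 0.777, 0.243, 0.526 and 0.176 CPM with EtOH and 7.94, 7.26, 7.25 and 4.02 CPM with calcipotriol. The log2 fold change of Cldn3 was 3.93 (standard error 0.52, edgeR adjusted p = 0.00654), and it was past both thresholds in every fit that tested it. Cldn3 reached the CPM minimum of the filter in 2 EtOH-treated and all 4 calcipotriol-treated tumors. It thus passed the filter through the group in which it was higher. Tjp1, the scaffold protein ZO-1, had a log2 fold change of -0.36 (edgeR adjusted p = 0.313).

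Hemidesmosomes anchor basal cells to the matrix below them, and 0 of the 9 genes of hemidesmosomes and their laminin, all tested, passed in either direction. Their median log2 fold change was -0.03, with 4 above 0 and 5 below. The summed list was at 2550 to 3080 CPM with EtOH and 1670 to 2600 CPM with calcipotriol. Itga6 was at 740 to 906 CPM with EtOH and 291 to 571 CPM with calcipotriol, with no overlap. The log2 fold change of Itga6 was -0.83 (edgeR adjusted p = 0.0527). Lama3, a laminin chain, was at 0 to 0.778 CPM with EtOH, at 0 and 0.958 CPM in calcipotriol-treated tumors 1 and 5 and at 6.91 and 11.9 CPM in tumors 6 and 7 (edgeR adjusted p = 0.207).

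Of 16 genes described as p63 targets, 12 were tested, 2 rose and 0 fell, with a median log2 fold change of -0.10 beside 0.02 over all genes tested. Dlx3, a homeobox gene of differentiating epidermis, rose from 0.389, 0, 0.85 and 0.705 CPM to 11, 9.31, 5.28 and 5.72 CPM. Its log2 fold change came to 3.98 (standard error 0.73, edgeR adjusted p = 0.0215). Krt14, the basal keratin, had 0 to 1.5 CPM with EtOH and 1.59, 10.2, 46.2 and 43.3 CPM with calcipotriol, so that tumor 1 was just above the EtOH-treated tumors. Its log2 fold change came to 5.17 (standard error 1.07, edgeR adjusted p = 0.0336). Dlx3 reached the CPM minimum of the filter in 2 EtOH-treated tumors and Krt14 in 3, but both in all 4 calcipotriol-treated tumors. Both thus passed the filter through the group in which they were higher. Krt5, which pairs with Krt14 in basal cells, was at 0 to 2.79 CPM with EtOH and 0.159 to 2.16 CPM with calcipotriol (edgeR adjusted p = 0.927). Leaving out any 1 of EtOH-treated tumors 1, 2, 3 and 4 or calcipotriol-treated tumors 5, 6 and 7 ended the call of Krt14, and leaving out EtOH-treated tumor 1 or calcipotriol-treated tumors 5, 6 or 7 ended that of Dlx3.

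Perp is also a target gene of p53, so the p53 family and other p53 target genes were read beside it. Of 14 genes, 13 were tested and 0 passed in either direction, with a median log2 fold change of -0.02. Trp53 was at 108 to 159 CPM with EtOH and 68.4 to 106 CPM with calcipotriol (log2 fold change -0.55, edgeR adjusted p = 0.123). Trp73, the third family member, had at most 2 counts in any tumor. Phlda3 and Aen, p53 target genes, had log2 fold changes of 0.58 and 0.61 (edgeR adjusted p = 0.138 and 0.275).

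**Figure D4:**
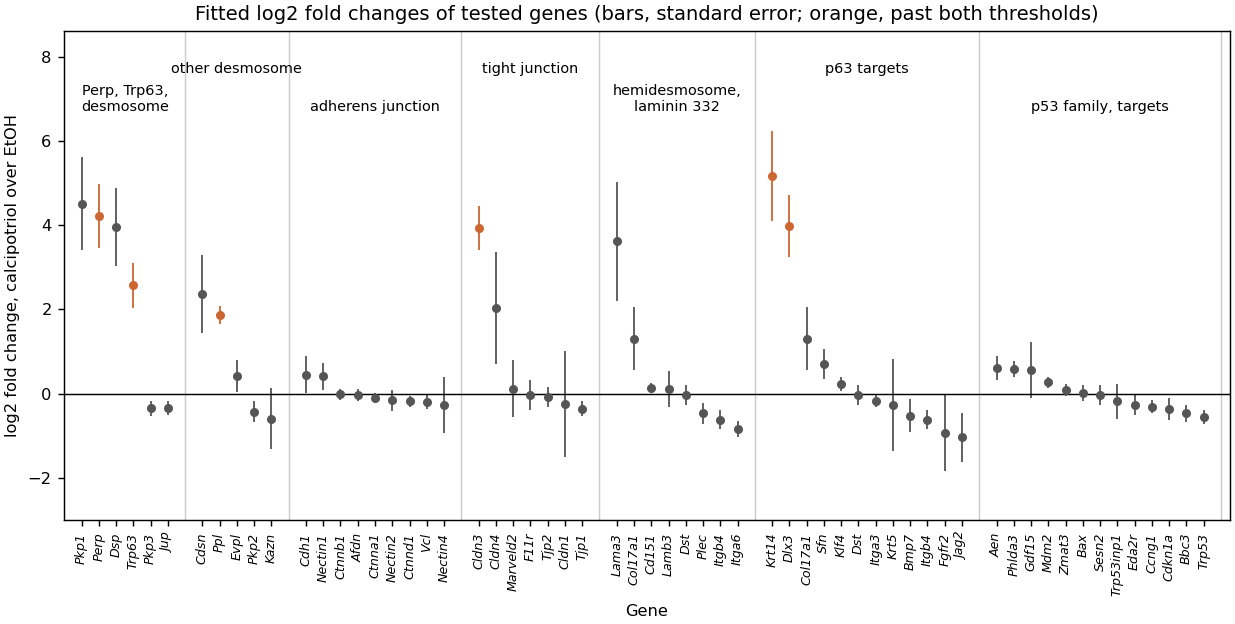
Fitted log2 fold change (calcipotriol over EtOH) of tested genes, grouped by list, with bars for the standard error and orange for genes past both thresholds. Perp and Trp63 among the 10 genes, and Ppl, Cldn3, Krt14 and Dlx3 in the lists, are orange.

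Regulators of the epithelial state, transcription factors listed with the splicing regulators Esrp1 and Esrp2, were mostly low in these tumors. Of these 13 genes 9 did not pass the filter on low counts, among them Grhl1, Grhl2, Ovol1, Ovol2 and Ehf. Grhl1 had 13 counts over the EtOH-treated and 47 over the calcipotriol-treated tumors. In the same order Grhl2 had 0 and 32, Ovol1 0 and 4, Ovol2 0 and 14, and Ehf 12 and 71. Elf5 had 0 and 12, Esrp1 3 and 81, and Esrp2 13 and 23. Grhl3 had 0 in every tumor. These differences were not tested. Of the 4 tested 0 passed in either direction. Klf5 and Tfap2a were present in all tumors, at 21.5 to 53.7 CPM and 71.7 to 109 CPM. Of 9 mesenchymal genes, all tested, 0 passed. Among them Cdh2, N-cadherin, was at 20.4 to 30.1 CPM with EtOH and 6.21 to 19.6 CPM with calcipotriol (log2 fold change -0.85, edgeR adjusted p = 0.173), and Twist1 had a log2 fold change of -0.75 (edgeR adjusted p = 0.109).

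Epithelial marker genes also differed between tumors within a group. Epcam, an adhesion molecule of most epithelial cells, was at 0, 0, 4.29 and 2.86 CPM with EtOH and at 1.51, 1.19, 19.1 and 22.7 CPM with calcipotriol. Krt7, a keratin of gland ducts, was at 0, 0, 0.567 and 1.15 CPM and at 2.38, 1.23, 17.2 and 16.2 CPM, with no overlap (log2 fold change 4.39, edgeR adjusted p = 0.0825). Both were highest in calcipotriol-treated tumors 6 and 7, as was Krt14. Perp and Trp63 were highest in calcipotriol-treated tumor 5, where Epcam was at 1.19 CPM, and Pkp1 was highest in tumor 1, where Epcam was at 1.51 CPM. With calcipotriol-treated tumors 6 and 7 left out, the log2 fold changes of Perp, Trp63, Dsp and Pkp1 were 4.24, 2.78, 3.36 and 5.27.

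**Figure D5:**
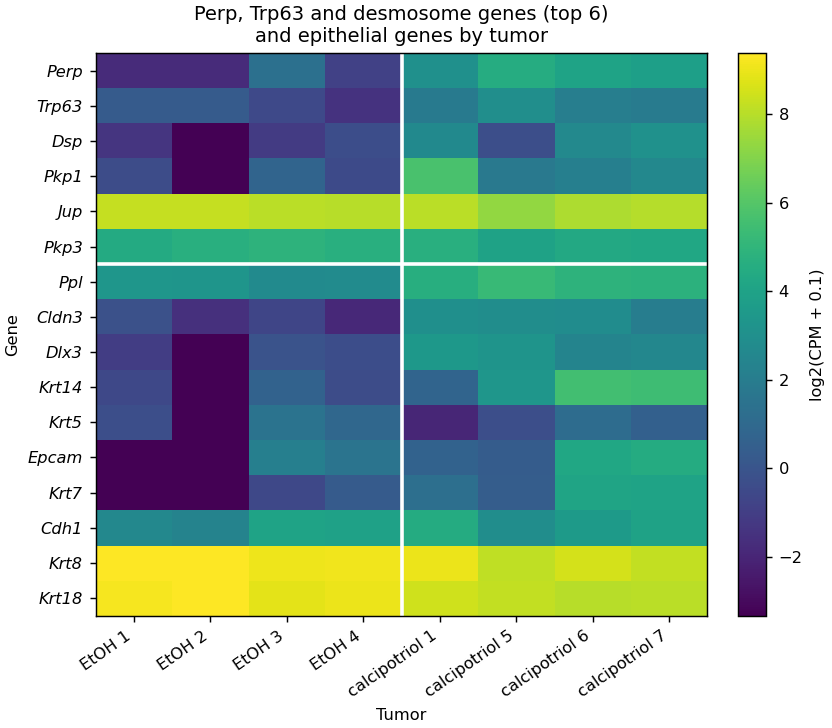
Level, as log2(CPM + 0.1), of Perp, Trp63, Dsp, Pkp1, Jup and Pkp3 (top) and of 10 epithelial genes (below) in each tumor. Epcam, Krt7 and Krt14 are brightest in calcipotriol-treated tumors 6 and 7, whereas Perp and Trp63 are brightest in tumor 5 and Pkp1 in tumor 1.

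Skin lies over the treated site and is rich in desmosomes, so markers of skin were read in the same tumors. Of 14 genes of differentiated epidermis, 6 (Krt2, Flg, Hrnr, Dsg1a, Dsg1b and Dsc1) had 0 counts in every tumor. Krt1 was at 0 in the EtOH-treated tumors and at 0.278, 0.182, 0.144 and 0 CPM in the calcipotriol-treated tumors. The summed list was at 10.9 to 14.9 CPM with EtOH and 5.24 to 22.1 CPM with calcipotriol. Most of it was Lor (7.4 to 11.8 CPM with EtOH and 2.05 to 9.22 CPM with calcipotriol), Krt10 (1.75 to 3.17 and 0.913 to 5.76 CPM) and, in calcipotriol-treated tumors 5, 6 and 7, Sbsn. With EtOH Sbsn was at 0.195 to 1.31 CPM, and with calcipotriol at 1.27, 2.69, 6.91 and 6.23 CPM, which overlap. Its log2 fold change was 2.51 (edgeR adjusted p = 0.0815) and that of Lor -1.01 (edgeR adjusted p = 0.246). Of the 3 genes tested in this list, 0 passed in either direction. Of 6 hair follicle markers, 3 had 0 counts in every tumor, and the sum was at most 1.81 CPM.

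Of 11 basal and myoepithelial markers, 8 were tested, and Krt14 rose while Mylk, the myosin kinase of contractile cells, fell (log2 fold change -1.44, edgeR adjusted p = 0.00747). The summed list was at 68 to 134 CPM with EtOH and 57.4 to 110 CPM with calcipotriol. Of 10 general and luminal epithelial markers, 8 were tested and Cldn3 alone passed. The median log2 fold change of the 8 was 0.61, with 6 above 0 and 2, Krt8 and Krt18, below. The sum of the list, mainly Krt8 and Krt18, was at 1010 to 1320 CPM with EtOH and 601 to 900 CPM with calcipotriol.

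Markers of other cells moved with the treatment too. Of 8 endothelial genes, 3 fell (Kdr, Pecam1 and Tie1) and 0 rose, and the sum was 171 to 356 CPM with EtOH and 66 to 155 CPM with calcipotriol. Of 8 macrophage genes, Csf1r and Adgre1 fell and Cd163 rose, with sums of 2100 to 2580 and 1070 to 1880 CPM. Of 6 fibroblast genes 0 passed, with sums of 4790 to 5350 and 3560 to 6330 CPM. Skeletal muscle genes, 0 of 6 tested past the thresholds, summed to 43.7 and 46.7 CPM in EtOH-treated tumors 3 and 4 and to 1.07 to 6.77 CPM in the other 6 tumors. The part of these cell types in the levels of the 10 genes was not tested. With EtOH-treated tumors 3 and 4 left out, the log2 fold changes of Perp, Trp63, Dsp and Pkp1 were 6.29, 2.03, 5.17 and 5.6.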

How the data were processed

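The authors deposited 1 table of expected counts, that is estimated counts of reads for each gene, with a column for each of 8 tumors and no scaling between tumors. The submitters' processing notes name STAR 2.5.3, RSEM 1.3.1, DESeq2 1.24.0 and GRCm38, without saying which made the table. The labels name a NovaSeq sequencer and the study's methods a HiSeq. The strand setting is not given in the sources used here. Per tumor, 4.2% to 6.22% of values were not whole, and values were rounded. GENCODE M21 (GRCm38) gave symbols, positions and exon lengths for 52081 of 55414 identifiers.

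The test was edgeR 4.0.16 under R 4.3.3 (filterByExpr, here at least 0.448 CPM in 4 tumors, TMM, glmQLFit, glmQLFTest) over all genes, with Benjamini-Hochberg adjustment. The standard error is the absolute log2 fold change divided by the square root of the F statistic. The study's methods used limma, which was tried as limma-voom (limma 3.58.1), as was DESeq2 1.42.0. Other alternatives were DESeq2's size factors, no filter, a minimum of 10 counts and leaving out tumors. On simulated counts with 200 changed genes, edgeR recovered 190 with 11 false calls among 14458 genes. The simulation used the same size of change for every changed gene, the same dispersion for all genes and no outlying tumor. Its recovery rate therefore does not carry over to the real tumors. The design had foreseen whole counts. Counting intervals and the 3-count floor cover counting error only, and the intervals are exact conditional binomial at 95%. Each library is a separate tumor.

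The genes, the gene lists and their tests were chosen with earlier results of these data known. Named from the lists were genes past both thresholds (at most 4 per list), where under 2 passed the 2 largest changes among tested genes averaging 50 counts or more, and a fixed set of markers. Flg and others named for being at 0, or because they passed no filter, were added after their values were seen. So were Cdsn, Evpl, Kazn and Itga6. 1 gene of the lists is counted but not reported here by name or value.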

Additional observations from a re-analysis of the deposited data

Results flagged for a closer look

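Dixon's test at the 5% level, on log2 of CPM plus 0.1, was applied to 18 groups of 4 tumors, the 10 genes in each treatment where any tumor had more than 3 counts, and it singled out 3 tumors. Chance singles out a tumor in about 1 in 20 groups, but this rate does not hold for Dsg2 and Dsc3, where the other 3 tumors were tied at 0 and any count in the fourth is singled out. Calcipotriol-treated tumor 5 had 0.73 CPM of Dsp, far below the other calcipotriol-treated tumors. EtOH-treated tumor 3 had 0.486 CPM of Dsg2, where the other EtOH-treated tumors had 0. EtOH-treated tumor 1 had 0.194 CPM of Dsc3, or 4 counts, where the others had 0. On this log scale Pkp1 in calcipotriol-treated tumor 1, at 53.2 CPM, was not singled out.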

How the results depend on the processing

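The number of genes past both thresholds, 292, became 458 with no filter on low counts, 644 with DESeq2, and 110 to 642 with 1 tumor left out, the highest without calcipotriol-treated tumor 1. It became 605 without EtOH-treated tumors 3 and 4 and 67 without calcipotriol-treated tumors 6 and 7, alternatives chosen after seeing the data. Of the 10 genes, which were chosen with these values in view, 2 were past both thresholds, and this became 4 with no filter (Perp, Trp63, Dsp and Pkp1, beside 1.04% of genes higher), 1 with limma-voom (Perp, where 0.865% of all genes were higher), 0 with a minimum of 10 counts in every tumor, which removes all but Jup and Pkp3, and 0 without calcipotriol-treated tumors 6 and 7. DESeq2 called Perp, Trp63 and Dsp, beside 2.25% of genes higher, and gave Pkp1 no adjusted p. With 1 tumor left out the count was 0 to 3, beside 0.461% to 1.62% of genes higher. Without calcipotriol-treated tumors 6 and 7, 0.28% of genes were higher. The 4 called genes of the pathway lists became 1 with the minimum of 10 counts, 2 with limma-voom and 2 to 5 with 1 tumor left out. The log2 difference in mean log2 CPM had a median over all 10 genes of 1.83, which depends on the prior count of 2 through the cadherins, and was 1.42 to 2.26 under its 11 alternatives. For that median, another test or filter gives no value. DESeq2's size factors moved the median of all genes by 0.0043 on the log2 scale. No paired analysis was made, because the labels give no pairing of tumors between the groups. The replicate number 1 that both groups share is not said to mark a pair. Depth limits the cadherins, whose counts of 0 to 25 per tumor allow only intervals on ratios.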
